A study of Mus musculus with 10 samples.

Results

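Transcripts of the phagocyte NADPH oxidase were followed in 10 whole mouse mammary tumors, with the non-phagocyte oxidases Nox1 and Nox4 beside them. The genes were chosen by name, as those whose probe set carries the gene symbol in the array annotation. They were 7 of 19505 measured genes, 5 phagocyte subunits (Cybb, Cyba, Ncf1, Ncf4 and Rac2) and 2 catalytic subunits of other oxidases, each with 1 probe set. All tumors were grown from the mouse mammary cancer line M-Wnt, transduced with a doxycycline-inducible shRNA to Pcx (pyruvate carboxylase). For each tumor 50000 of these cells were placed in mammary fat pad 4 of adult female C57BL6J mice. The 5 shPC mice drank water with doxycycline at 150 µg/ml and the 5 Ctrl mice drank plain water, so both groups carried the shRNA and doxycycline reached shPC mice only. Effects of the drug and of the shRNA therefore cannot be told apart. Each array was made from RNA of a whole tumor, host leukocytes, fibroblasts and fat included. No source used here tells whether a mouse bore more than 1 tumor, so the p-values cover the variation among these tumors.

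NADPH oxidases carry electrons from NADPH across a membrane to oxygen and so make superoxide or hydrogen peroxide. In phagocytes the catalytic subunit gp91phox (Cybb) and its partner p22phox (Cyba) form flavocytochrome b558 in the membrane. On stimulation cytosolic subunits such as p47phox (Ncf1) and p40phox (Ncf4) and the small GTPase Rac2 join it, and the burst of superoxide that follows is used to kill microbes. Nox1 is best known from colon epithelium, where it works with Noxo1 and Noxa1. Nox4 is best known from kidney, fibroblasts and vessel walls, needs Cyba, and is active without cytosolic subunits. Macrophages, neutrophils and other myeloid cells are the usual source of the phagocyte subunits in a tumor.

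The bases upstream of a start site, read from RefSeq (build GRCm38.p6), were printed for 3 genes, chosen because their values differed in kind. Cybb was lower in every shPC tumor, Ncf1 was not, and Nox4 was the non-phagocyte oxidase that was not dim in every tumor. Each line gives the 250 bases that end at the start site, 5′ to 3′ on the strand of the gene. Capitals mark matches to an interferon regulatory factor element (GAAANNGAAA) or a gamma-activated STAT element (TTCNNNGAA), searched on both strands. In Cybb and in Nox4 the annotated gene reaches further upstream than this start. The Cybb window is chrX:9469325-9469574 (minus strand), the Ncf1 window chr5:134229626-134229875 (minus strand) and the Nox4 window chr7:87246399-87246648 (plus strand).
Cybb: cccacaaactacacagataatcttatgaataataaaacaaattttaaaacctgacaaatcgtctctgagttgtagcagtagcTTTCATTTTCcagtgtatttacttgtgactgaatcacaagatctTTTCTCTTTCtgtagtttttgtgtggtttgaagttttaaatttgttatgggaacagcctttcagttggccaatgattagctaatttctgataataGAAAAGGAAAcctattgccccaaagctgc
Ncf1: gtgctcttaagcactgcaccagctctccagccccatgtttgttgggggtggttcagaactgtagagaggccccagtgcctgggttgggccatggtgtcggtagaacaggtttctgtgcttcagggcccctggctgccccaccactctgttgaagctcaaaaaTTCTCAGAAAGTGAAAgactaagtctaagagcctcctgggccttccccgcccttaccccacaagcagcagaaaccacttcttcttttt
Nox4: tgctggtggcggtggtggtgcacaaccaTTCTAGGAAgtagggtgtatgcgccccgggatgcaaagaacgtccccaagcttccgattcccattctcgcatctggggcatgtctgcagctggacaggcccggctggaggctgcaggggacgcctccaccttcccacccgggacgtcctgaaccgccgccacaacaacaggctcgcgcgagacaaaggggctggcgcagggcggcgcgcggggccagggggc

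The Cybb window held 3 interferon regulatory factor elements, with first bases at -168, -124 and -29 from the start, those at -168 and -124 on the opposite strand. The Ncf1 window held 1 such element at -82, and it shared bases with a STAT element at -88. The Nox4 window held 1 STAT element at -222. Windows were available for 5 of the 7 genes. That of Cyba, a subunit that was also lower, held 0 matches to any motif searched, and Ncf4 and Rac2 had no window. Among 32851 windows of 27025 genes, 2.98% held the interferon regulatory factor element and 7.02% the STAT element. The PU.1 core, named for the myeloid factor encoded by Spi1, was searched only as the string GAGGAA, so variants of it were not counted. It was in 23.3% of all windows and in 1 of the 5, that of Nox1. A composite of both kinds of element (GGAANNGAAA) was in 2.3% of all windows and in 0 of the 5. The matches describe these letters and do not show binding.

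Signals of 4 of the 5 phagocyte subunits were lower in shPC than in Ctrl tumors, with differences from -0.88 (Rac2) to -0.42 (Ncf4), and that of Ncf1 was not lower (0.06). Cybb was the subunit whose groups did not overlap. The signals of Nox1 and Nox4 differed by 0.20 and 0.18 between the groups, within the spread of the tumors. Values are on the log2 scale as deposited and differences are shPC minus Ctrl. The base of the logarithm was taken as 2 and is not certain, since the highest signal of each array was 19.04 to 19.19. No gene passed an adjusted p of 0.05 (limma, Benjamini-Hochberg adjustment over all 19505 genes), so each difference stands with its standard error (SE). All arrays correlated with r of 0.96 to 0.993. The array of shPC 5 stood apart in its median signal, 6.78, against 7.01 to 7.17 in the other 9 arrays, and it was lowest for Cybb, Cyba and Rac2. In whole tumors fewer phagocytes and less of a transcript in each phagocyte cannot be told apart.

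Pcx, the target of the shRNA, is read first because it checks the labels. Its signal in shPC tumors 1 to 5 was 9.91, 4.69, 9.39, 4.49 and 5.15, against 10.43, 7.24, 11.01, 7.79 and 9.54 in Ctrl tumors 1 to 5. The tumors labelled shPC 1 and shPC 3 lay inside the Ctrl range and the other 3 lay below it. Fat cells of the host also express Pcx, and the mean signal of 9 adipocyte genes was 12.58 and 11.64 in shPC 1 and shPC 3, against 7.20, 6.75 and 7.67 in shPC 2, 4 and 5. The Pcx difference was -2.48 (SE 1.19, adjusted p = 0.378 from limma), and it reads cancer and host cells together. With the adipocyte list as a covariate it was -0.25 (SE 0.26), with a list of general leukocyte genes -0.98 (SE 2.20), and without shPC 1 and shPC 3 -4.43 (SE 0.82). The last value is larger by the choice itself, since shPC 1 and shPC 3 had the highest Pcx signals of the shPC group. Without these 2 tumors, an alternative chosen after seeing the data, 4 of 5 phagocyte subunits were again lower at an unadjusted p under 0.05, against 7.22% of all genes. Their median difference was then -0.70, against -0.50 with all tumors. This value too is lower in part by the choice, since Cyba, Ncf4 and Rac2 were highest within the shPC group in shPC 1 and shPC 3.

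**Figure D1:**
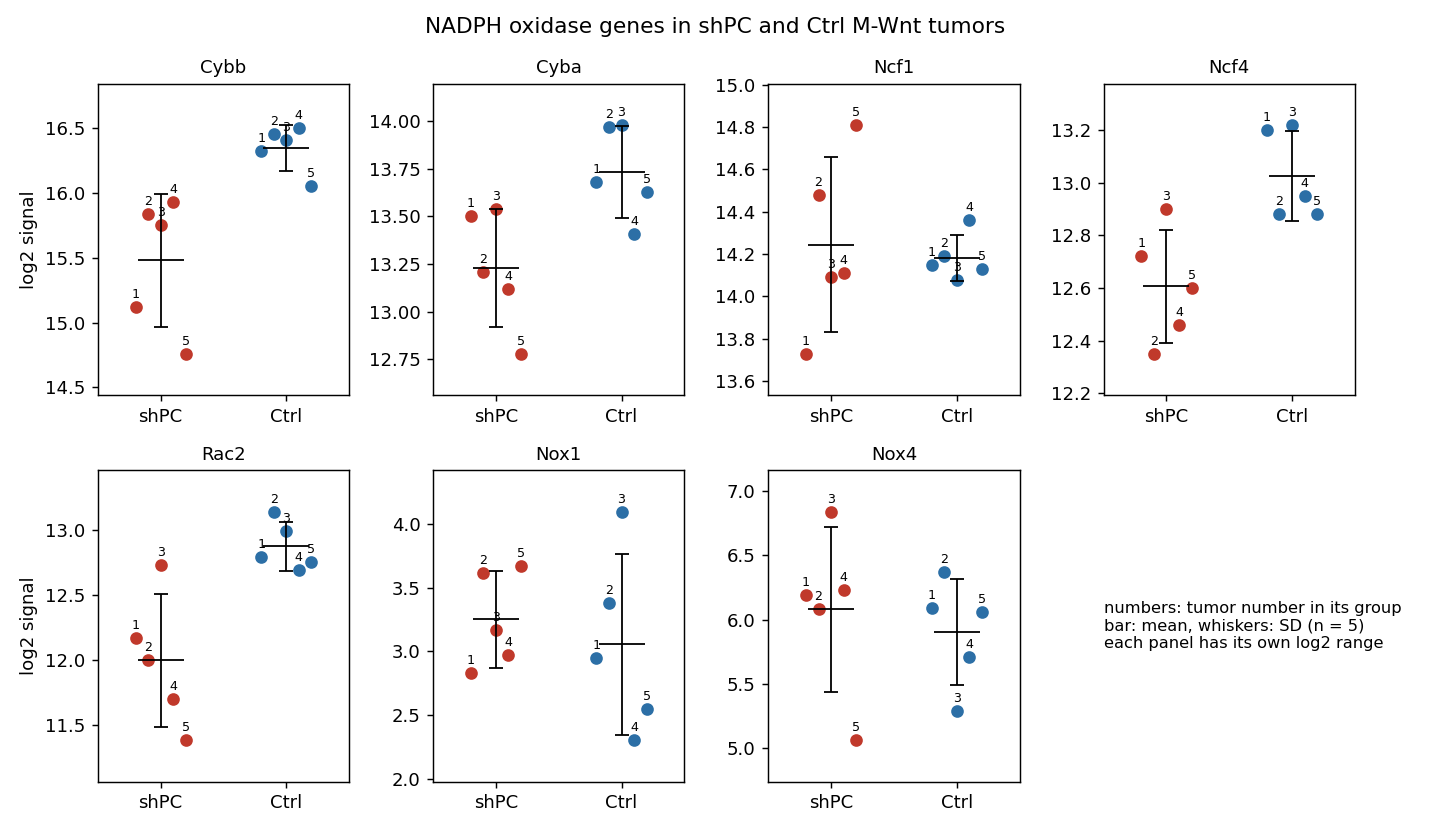
Log2 signal (vertical axis, a range of its own in each panel) of the 7 oxidase genes in shPC tumors (red) and Ctrl tumors (blue), with points numbered by tumor, a bar at the mean and whiskers of 1 SD (n = 5 per group). Every shPC point lies below every Ctrl point for Cybb, 4 of 5 do for Ncf4 and Rac2, and the groups overlap widely for Ncf1, Nox1 and Nox4.

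Cybb (Entrez Gene 13058; chrX:9435252-9487766, GRCm38.p6) encodes gp91phox, the subunit that carries the electrons. Its log2 signal in shPC tumors 1 to 5 was 15.12, 15.84, 15.75, 15.93 and 14.76, against 16.32, 16.45, 16.41, 16.50 and 16.05 in Ctrl tumors 1 to 5. All 5 shPC tumors lay below all Ctrl tumors, with shPC 1 and shPC 5 the lowest. Means were 15.48 ± 0.51 in shPC tumors and 16.35 ± 0.18 in Ctrl tumors (SD, n = 5 each). The difference was -0.87 (SE 0.23, 95% interval -1.37 to -0.36, adjusted p = 0.194 from limma). If the base is 2, this is a 1.82-fold lower level. Of all genes 3.99% had a difference as low or lower.

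Cyba (Entrez Gene 13057; chr8:122424771-122432940) encodes p22phox, which holds gp91phox in the membrane and serves other Nox proteins too. Its signal was 13.50, 13.21, 13.54, 13.12 and 12.78 in the shPC tumors, against 13.68, 13.97, 13.98, 13.41 and 13.63 in the Ctrl tumors. Tumors shPC 2, 4 and 5 were lower than any Ctrl tumor, with shPC 1 and shPC 3 inside the Ctrl range. The difference was -0.50 (SE 0.18, 95% interval -0.90 to -0.11, adjusted p = 0.26 from limma).

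Ncf1 (Entrez Gene 17969; chr5:134220053-134229628) encodes p47phox, the organizer that is phosphorylated on stimulation and brings the cytosolic subunits to the membrane. Its signal was 13.73, 14.48, 14.09, 14.11 and 14.81 in the shPC tumors, against 14.15, 14.19, 14.08, 14.36 and 14.13 in the Ctrl tumors. The shPC tumors spread to both sides, with shPC 1 below and shPC 2 and shPC 5 above all Ctrl tumors. The SD was 0.41 in shPC tumors and 0.11 in Ctrl tumors. The difference was 0.06 (SE 0.19, 95% interval -0.36 to 0.48, adjusted p = 0.907 from limma), and without shPC 5 it was -0.08.

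Ncf4 (Entrez Gene 17972; chr15:78244164-78262582) encodes p40phox, which binds a phosphoinositide of the phagosome membrane. Its signal was 12.72, 12.35, 12.90, 12.46 and 12.60 in the shPC tumors, against 13.20, 12.88, 13.22, 12.95 and 12.88 in the Ctrl tumors. In 4 shPC tumors it was below all Ctrl tumors, and shPC 3 lay at the lower edge of the Ctrl range. The difference was -0.42 (SE 0.15, 95% interval -0.74 to -0.10, adjusted p = 0.252 from limma).

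Rac2 (Entrez Gene 19354; chr15:78559169-78572783) encodes a GTPase of blood cells, lymphocytes included. Its signal was 12.17, 12.00, 12.73, 11.70 and 11.38 in the shPC tumors, against 12.79, 13.14, 12.99, 12.69 and 12.75 in the Ctrl tumors. In 4 shPC tumors it was below all Ctrl tumors, shPC 5 was the lowest, and shPC 3 lay at the lower edge of the Ctrl range. The difference was -0.88 (SE 0.23, 95% interval -1.38 to -0.37, adjusted p = 0.194 from limma), a 1.84-fold lower level if the base is 2. Of all genes 3.92% had a difference as low or lower.

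Nox1 (Entrez Gene 237038; chrX:134086421-134137711) was dim, under the 30th percentile of the array in all 10 tumors. Its signal was 2.83, 3.62, 3.17, 2.97 and 3.67 in the shPC tumors, against 2.95, 3.38, 4.10, 2.30 and 2.55 in the Ctrl tumors. The groups overlapped, and both the highest and the lowest tumor were Ctrl tumors. The difference was 0.20 (SE 0.32, 95% interval -0.51 to 0.90, adjusted p = 0.812 from limma). It was 0.01 without Ctrl 4 and 0.46 without Ctrl 3.

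Nox4 (Entrez Gene 50490; chr7:87244430-87398710) lay between percentiles 40.1 and 48.9 of the arrays. Its signal was 6.19, 6.08, 6.84, 6.23 and 5.06 in the shPC tumors, against 6.09, 6.37, 5.29, 5.71 and 6.06 in the Ctrl tumors. The highest (shPC 3) and the lowest (shPC 5) were both shPC tumors. The difference was 0.18 (SE 0.31, 95% interval -0.50 to 0.85, adjusted p = 0.824 from limma). Without shPC 3 it was -0.01, and without shPC 1 and shPC 3 it was -0.11.

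**Figure D2:**
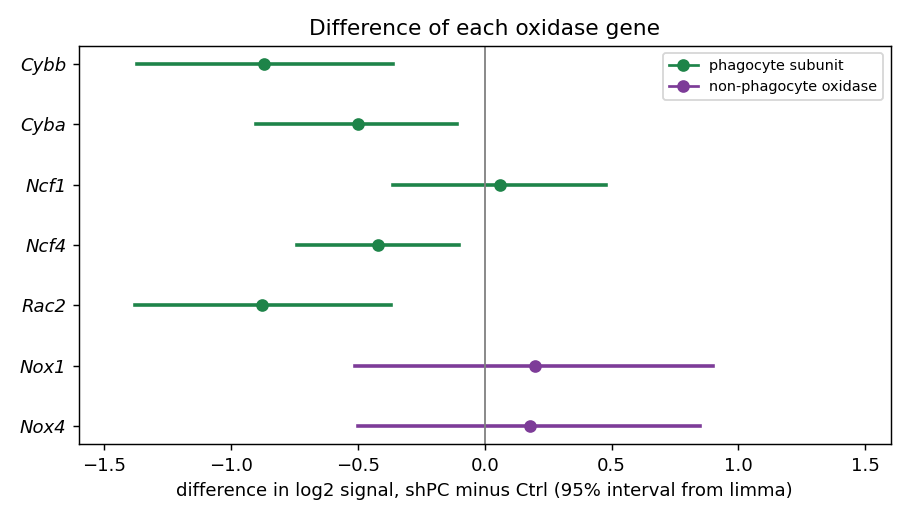
Difference in log2 signal, shPC minus Ctrl (horizontal axis), for each oxidase gene (vertical axis), with phagocyte subunits in green, non-phagocyte oxidases in purple and bars for the 95% interval from limma (n = 5 per group). The unadjusted intervals of Cybb, Cyba, Ncf4 and Rac2 lie below 0, and those of Ncf1, Nox1 and Nox4 cover 0.

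Over all genes limma called 0 of 19505 (0%) lower and 0 (0%) higher at the adjusted threshold. At an unadjusted p under 0.05 it called 1219 genes lower (6.25%) and 1521 higher (7.8%). The methods' t-test also called 0 after adjustment, with 1045 lower and 1613 higher before it. Against this background 4 of the 5 phagocyte subunits were lower by that unadjusted rule and 0 were higher, and 0 of the 2 non-phagocyte oxidases were called in either direction. The whole shPC group lay below the whole Ctrl group in 1 of the 5 subunits and in 1.79% of all genes. The whole shPC group lay above the whole Ctrl group in 0 of the 7 genes and in 1.82% of all genes. The median difference was -0.50 for the 5 subunits, 0.19 for Nox1 and Nox4, and 0.04 for all genes, of which 44.9% had a difference below 0. The 2 kinds of oxidase are set side by side, and their difference was not tested.

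The tumors did not carry these differences equally. In shPC 1, 2, 4 and 5, 4 of the 5 phagocyte subunits lay below all Ctrl tumors. In shPC 3 that was so for 1 of the 5, Cybb, and the other 4 were inside the Ctrl range. The subunits also differed in which tumor was lowest: shPC 5 for Cybb, Cyba and Rac2, shPC 2 for Ncf4 and shPC 1 for Ncf1. In shPC 5 the distance from the Ctrl mean was -1.59 for Cybb, -1.49 for Rac2 and 0.63 for Ncf1. The mean signal of the 5 subunits was 13.45, 13.58, 13.80, 13.46 and 13.27 in the shPC tumors, against 14.03, 14.13, 14.14, 13.98 and 13.89 in the Ctrl tumors, with no overlap.

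**Figure D3:**
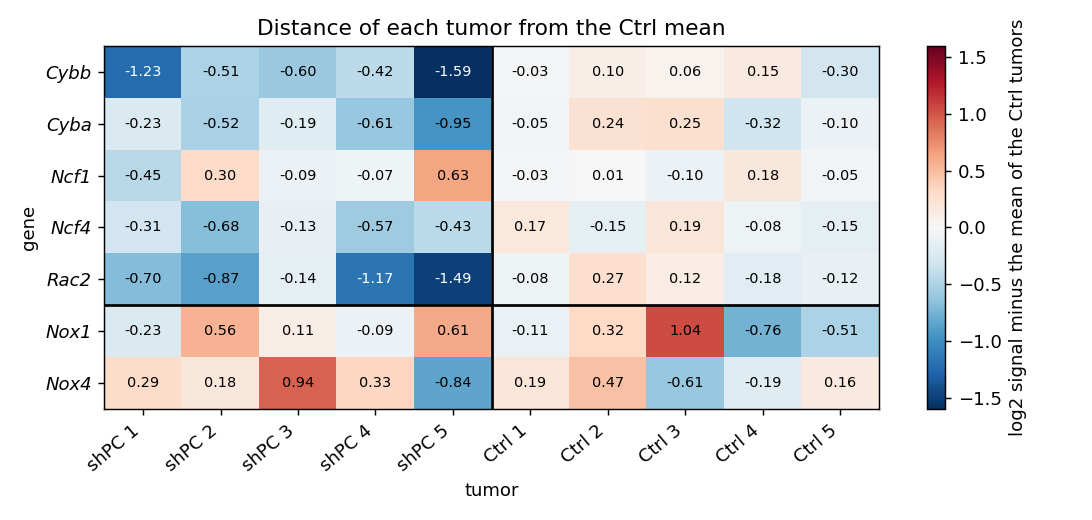
Distance of each tumor (columns, shPC left of Ctrl) from the mean of the Ctrl tumors in log2 signal, for each oxidase gene (rows), blue below and red above that mean. Blue fills the shPC columns for Cybb, Cyba, Ncf4 and Rac2, while Ncf1 ranges from -0.45 in shPC 1 to 0.63 in shPC 5.

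With the mean of each group removed, the subunits moved together from tumor to tumor to differing degrees. Cyba and Rac2 were the closest pair (Pearson r = 0.882, Spearman rho = 0.952, n = 10 tumors). Cyba and Ncf1 ran in opposite directions (r = -0.752, rho = -0.648). Cybb and Cyba, whose proteins form 1 complex, had r = 0.323 and rho = 0.103, and Rac2 and Nox4 had r = 0.731 and rho = 0.564. These values describe 10 tumors, and all genes of a tumor share its array and its cell mixture.

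By the same measure the genes most like Cybb over the 10 tumors were Rnase6 (r = 0.975), Btg1 (0.97), Apol10b (0.967), Gramd4 (0.961) and 9930111J21Rik1 (0.961). Rnase6, a secreted ribonuclease of the RNase A family, had no overlap between the groups. It was 10.42, 11.32, 11.15, 11.36 and 9.86 in the shPC tumors, against 11.60, 12.05, 11.85, 11.78 and 11.50 in the Ctrl tumors. Its difference was -0.93 (SE 0.28, adjusted p = 0.221 from limma), and those of Apol10b and 9930111J21Rik1 were -1.31 (SE 0.43) and -0.48 (SE 0.18). Btg1, an antiproliferative gene, and Gramd4 differed by -0.26 (SE 0.18) and -0.17 (SE 0.32), so likeness to Cybb between tumors went with large and with small group differences. The genes most like Nox4 were Mmp2, a gelatinase of mesenchymal cells (r = 0.952), S100a5 (0.94), Svs5 (0.931), Syna (0.922) and Znhit3 (0.914). Of these Svs5 was dim in all 10 tumors, S100a5 in 3 and Syna in 1. Each was lowest within the shPC group in shPC 5, as Nox4 was. For Cybb and for Nox4 the genes were picked from all genes for the highest r, so their high r follows in part from the choice. Mmp2 differed by -0.25 (SE 0.25) between the groups, by -0.02 without shPC 5, and had its lowest value, 15.25, in shPC 5, the tumor that was also lowest for Nox4.

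The wider pathway was read from 6 lists of 73 genes, 60 of them measured. The lists were written from general knowledge but with earlier results of these data known, so their counts are not independent of these data. By the same unadjusted rule 16 of the 60 (26.7%) were lower, against 6.25% of all genes, and 2 were higher, against 7.8% of all genes. Of the 60, 0 passed the adjusted threshold. Every shPC tumor was below every Ctrl tumor in 4 (6.67%), against 1.79% of all genes, and the median difference of the 60 was -0.15.

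Among relatives and partners of the oxidases, 0 of 11 measured genes were called in either direction (14 listed, median difference -0.06). Cybc1, which encodes the chaperone that gp91phox needs in mice, differed by -0.07 (SE 0.15), and Rac1, the broadly expressed relative of Rac2, by -0.06 (SE 0.12). Both differences turned to 0.03 and 0.04 when arrays were centred on their medians. The Nox1 organizer Noxo1 differed by -0.06 (SE 0.23), and its activator Noxa1 was under the 30th percentile in all 10 tumors. Poldip2, a partner of Nox4, differed by 0.26 (SE 0.15), and Duox1, an oxidase of thyroid and airway epithelium, by -0.61 (SE 0.37), or by -0.26 without Ctrl 4.

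Rac2 cycles between an active and an inactive form. Of 11 measured regulators (12 listed, median difference -0.43), by the unadjusted rule 5 were lower and 1 was higher. Dock2 and Vav1, exchange factors that load Rac with GTP in blood cells, differed by -0.49 (SE 0.17, adjusted p = 0.254) and -0.44 (SE 0.17, adjusted p = 0.276). Arhgap15, which switches Rac off, differed by -0.58 (SE 0.23, adjusted p = 0.295). Tiam2, an exchange factor best known from neurons, was the gene on the other side, at 0.51 (SE 0.18, adjusted p = 0.266).

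Receptors and kinases upstream of assembly had 5 lower and 1 higher of 13 measured (19 listed, median difference -0.06). Itgb2 encodes CD18, the chain shared by the leukocyte integrins. Its signal was 12.14, 12.54, 12.58, 12.13 and 11.55 in the shPC tumors, against 13.23, 13.33, 13.58, 12.81 and 12.92 in the Ctrl tumors. The groups did not overlap, and the difference was -0.99 (SE 0.22, adjusted p = 0.185 from limma). Fgr, a Src family kinase of myeloid cells, also did not overlap (-0.72, SE 0.20). Syk, the kinase that relays Fc receptor signals, and Pik3cd, the leukocyte PI3 kinase, differed by -0.72 (SE 0.22) and -0.71 (SE 0.22).

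Transcription factors of the phagocyte oxidase genes had 3 lower and 0 higher of 9 measured (10 listed, median difference -0.31). Irf8 encodes a myeloid factor that acts on Cybb. Its signal was 10.08, 10.69, 10.52, 10.50 and 9.31 in the shPC tumors, against 11.24, 11.37, 11.17, 11.52 and 10.87 in the Ctrl tumors. As for Cybb, all 5 shPC tumors lay below all Ctrl tumors, with shPC 5 and shPC 1 the lowest. The difference was -1.01 (SE 0.25, adjusted p = 0.193 from limma). Irf1, an interferon-induced factor, did not overlap either (-0.76, SE 0.24), and Elf1, an ETS factor, differed by -0.37 (SE 0.15). Spi1, which encodes PU.1, a factor that myeloid cells need for Cybb, was 16.47, 16.39, 16.42, 16.17 and 16.17 in the shPC tumors, against 16.36, 16.47, 16.68, 16.38 and 16.39 in the Ctrl tumors. The groups overlapped for Spi1, with a difference of -0.13 (SE 0.13, 95% interval -0.41 to 0.14, adjusted p = 0.661), or -0.08 without Ctrl 3. Runx1, a factor of blood cells, differed by 0.29 (SE 0.14).

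Of 6 measured genes that supply NADPH (8 listed, median difference 0.05), 1 was lower and 0 higher. That gene was Hk3, the hexokinase of myeloid cells (-0.69, SE 0.24). Me1, which makes NADPH from malate and is abundant in fat, differed by -0.72 (SE 0.47), by -0.45 without Ctrl 1 and by 0.04 with the adipocyte list as a covariate. Genes that handle superoxide and peroxide had 2 lower and 0 higher of 10 (10 listed, median difference -0.22). Hvcn1 encodes the proton channel that balances the charge moved by the oxidase, in B cells as well as phagocytes. Its signal was 7.93, 9.03, 9.67, 9.02 and 6.97 in the shPC tumors, against 9.88, 9.99, 10.31, 9.98 and 9.58 in the Ctrl tumors. In 4 shPC tumors it was below all Ctrl tumors, and the difference was -1.42 (SE 0.43, adjusted p = 0.221 from limma). Nos2, the inducible nitric oxide synthase, differed by -1.63 (SE 0.57), and the superoxide dismutases Sod3 (extracellular) and Sod2 (mitochondrial) by -1.22 (SE 0.56) and -0.43 (SE 0.23). Sod3 differed by -0.67 without shPC 5, and Sod2 by -0.27 without Ctrl 2.

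Cell type markers were read in the same tumors, as the mean log2 signal of each list. Counts of genes called in these lists use an unadjusted p under 0.05 from limma. By that rule 6.25% of all genes were lower and 7.8% were higher. The general leukocyte list (10 of 10 measured) lay at 12.37 to 12.78 in shPC tumors, against 12.92 to 13.33 in Ctrl tumors, without overlap, and 7 of its 10 genes were lower at an unadjusted p under 0.05 with 0 dim (under the 30th percentile) in all tumors. The median difference of its 10 genes was -0.41, and they ranged from -0.89 to -0.19. Its genes of smallest p, Ptprc, which encodes CD45, and Cd52, differed by -0.89 (SE 0.22) and -0.87 (SE 0.21). The macrophage list (11 of 12 measured) lay at 12.85 to 13.50 in shPC tumors, against 13.06 to 13.23 in Ctrl tumors, and its mean differed by 0.03. The median difference of its 11 genes was -0.14, and 7 of the 11 were below 0. The mean and the median thus differ in sign, with Mrc1 (0.83), Cd163 (0.67) and Msr1 (0.48) the highest differences. Within the list Fcgr1 (-0.37, SE 0.14) and C1qa (-0.32, SE 0.13) were lower and Mrc1, a mannose receptor, was higher (0.83, SE 0.32), each at an unadjusted p under 0.05, and 0 of the 11 were dim in all tumors. Tumor shPC 5, the lowest for Cybb, Cyba and Rac2, was the highest for this list and for Mrc1 (16.17), and without it Mrc1 differed by 0.53.

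The neutrophil list (9 of 10 measured) lay at 4.25 to 4.79 in shPC tumors, against 4.62 to 5.66 in Ctrl tumors. By the unadjusted rule 4 of 9 genes were lower and 0 were higher, against 6.25% and 7.8% of all genes. Csf3r, the G-CSF receptor, was lower in every shPC tumor (-0.83, SE 0.21). S100a8 and S100a9, the most abundant proteins of the neutrophil cytosol, differed by -1.80 (SE 0.53) and -1.51 (SE 0.42). Much of this list was near the floor. Of the 9 genes 2 were dim in all 10 tumors, Elane and Retnlg in 9 each, Ltf in 6, S100a8 in 5, S100a9 in 2, Cxcr2 in 1 and Csf3r in 0. The T cell list (7 of 8 measured) lay at 6.88 to 10.74 in shPC tumors, against 10.68 to 12.01 in Ctrl tumors, with 6 of 7 genes lower, 0 higher and 0 dim in all tumors. The B cell list (6 of 7 measured) lay at 4.89 to 5.35 in shPC tumors, against 5.11 to 6.36 in Ctrl tumors, with 1 lower, 0 higher and 1 dim in all tumors. The eosinophil list (5 of 5 measured) lay at 3.45 to 4.35 in shPC tumors, against 3.62 to 3.98 in Ctrl tumors, with 0 called.

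**Figure D4:**
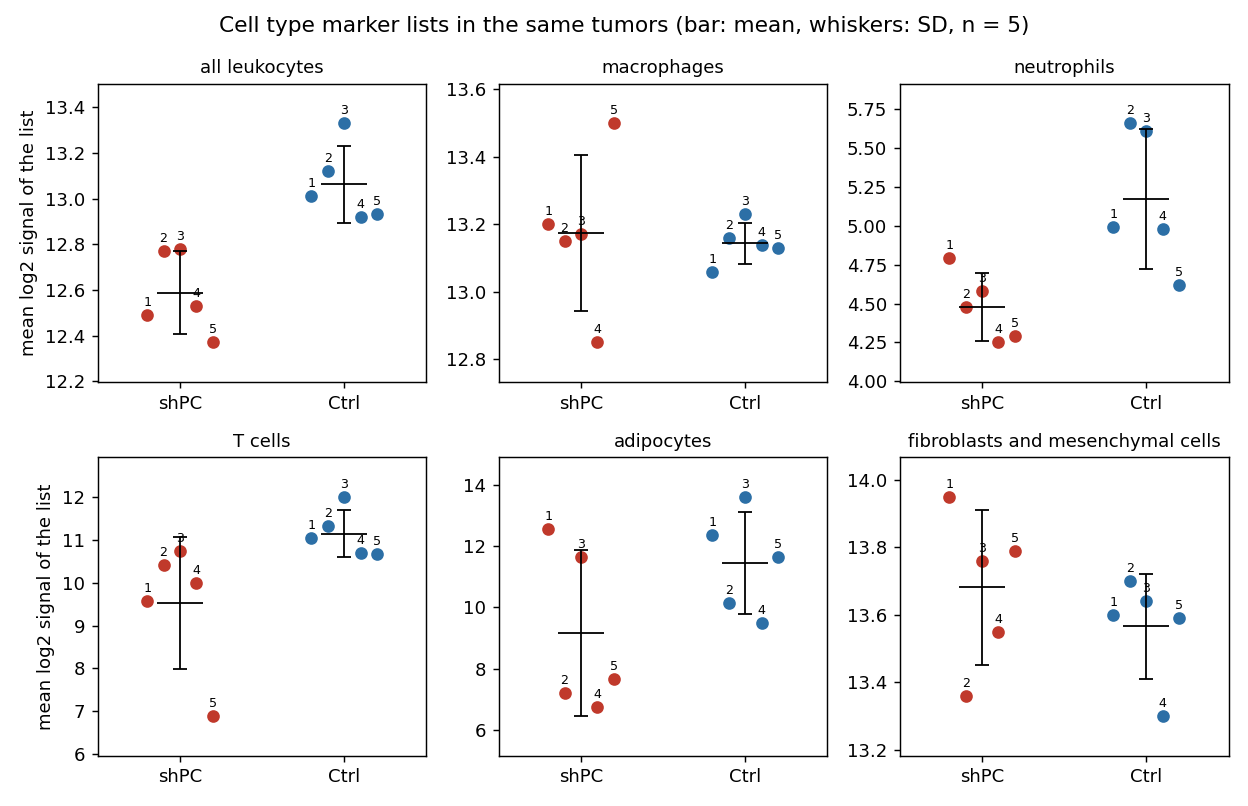
Mean log2 signal (vertical axis) of 6 cell type marker lists in shPC tumors (red) and Ctrl tumors (blue), with points numbered by tumor, a bar at the mean and whiskers of 1 SD (n = 5 per group). The general leukocyte list does not overlap between the groups, the macrophage list does, and shPC 1 and shPC 3 stand above the other shPC tumors in the adipocyte list.

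Lists of other cells were read too, by the same unadjusted rule and against the same shares of all genes. The adipocyte list (9 of 10 measured) lay at 6.75 to 12.58 in shPC tumors, against 9.50 to 13.62 in Ctrl tumors, with 0 called. Cyba, Ncf4 and Rac2 were highest within the shPC group in shPC 1 and shPC 3, the 2 tumors of that group with the highest adipocyte level. The fibroblast and mesenchymal list (12 of 13 measured) lay at 13.36 to 13.95 in shPC tumors, against 13.30 to 13.70 in Ctrl tumors, with 0 lower and 1 higher. The endothelial list (6 of 6 measured) lay at 9.4 to 10.76 in shPC tumors, against 9.0 to 10.53 in Ctrl tumors, with 0 called. The epithelial list (6 of 6 measured) lay at 4.50 to 7.39 in shPC tumors, against 6.25 to 10.23 in Ctrl tumors, with 2 lower and 0 higher. The lymph node list (6 of 7 measured) lay at 5.81 to 7.90 in shPC tumors, against 7.86 to 8.61 in Ctrl tumors, with 2 lower and 0 higher. The muscle list (5 of 5 measured) lay at 3.99 to 4.65 in shPC tumors, against 4.04 to 9.90 in Ctrl tumors, with 0 called and the highest value in Ctrl 1.

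The differences of the oxidase genes were then refitted with a marker list as a covariate. The mean of the macrophage list differed by 0.03 between the groups, so as a covariate it could hardly move a group difference. With the macrophage list the differences were -0.82 for Cybb, -0.49 for Cyba, 0.04 for Ncf1, -0.43 for Ncf4 and -0.87 for Rac2, and each lay within 1 standard error of the value without it. By the unadjusted rule 4 of the 5 subunits were lower, against 6.22% of all genes. With the adipocyte list they were -0.96 for Cybb, -0.31 for Cyba, -0.15 for Ncf1, -0.26 for Ncf4 and -0.64 for Rac2, and 2 of the 5 subunits were lower at an unadjusted p under 0.05, against 3.97% of all genes. With the general leukocyte list they were -0.23 for Cybb, 0.03 for Cyba, -0.13 for Ncf1, -0.28 for Ncf4 and -0.15 for Rac2, and 0 of the 5 were lower by that rule, against 1.49% of all genes. The level of that list did not overlap between the groups, and the standard errors were 1.47 to 1.85 times larger than without it. Nox1 and Nox4 differed by 1.14 (SE 0.50) and 0.60 (SE 0.56) with the leukocyte list, by 0.16 and 0.23 with the macrophage list, and by 0.24 and 0.29 with the adipocyte list. The part of macrophages and of other leukocytes, such as T cells and neutrophils, in the lower Rac2 and Cybb signals was not tested.

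**Figure D5:**
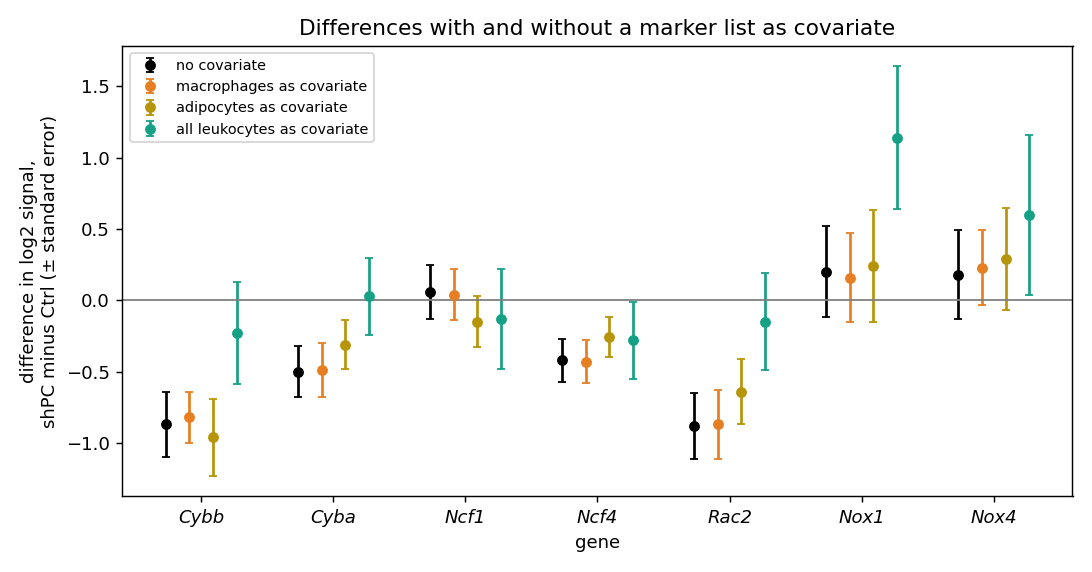
Difference in log2 signal, shPC minus Ctrl (vertical axis), for each oxidase gene (horizontal axis), without a covariate and with the mean of the macrophage, adipocyte or general leukocyte list as a covariate, with bars of 1 standard error (n = 5 per group). The macrophage list, whose mean differed by 0.03 between the groups, leaves each difference nearly in place. With the leukocyte list those of Cybb, Cyba and Rac2 lie near 0.

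Leaving out shPC 5 and Ctrl 1 together, tumors that stood apart in several marker lists, left 2 of the 5 subunits lower at an unadjusted p under 0.05, against 4.99% of all genes, with a median difference of -0.40. This alternative was chosen after seeing the data. Leaving out any 1 tumor left 4 of 5 lower by that rule, against 4.9% to 6.86% of all genes. With arrays centred on their medians 3 of 5 were lower, against 4.37% of all genes, and under that scaling the median difference of all genes was 0.14, against 0.04 as deposited. The share of higher genes among those called at an unadjusted p under 0.05 was 71.9% with centring, against 55.5% as deposited.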

How the data were processed

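The authors labelled RNA of 10 whole tumors with the WT PLUS kit, hybridized it to Clariom S mouse arrays and analysed it in Transcriptome Analysis Console. The deposited values were read as log2 signals that the authors had normalized between arrays. The base and the method of normalization are not given in the sources used here. The array held 22206 probe sets, of which 19572 named 1 gene and 0 several, and the 2634 without an entry in the annotation were dropped. For 55 genes with several probe sets the one with the highest mean was kept, which left 19505 genes, and 0 symbols were changed against RefSeq. Groups came from the sample labels, 0 columns were unused, and the number of arrays limits the precision.

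Genes were compared with limma 3.58.1 in R 4.3.3 (shPC minus Ctrl, default moderation, no filter, Benjamini-Hochberg adjustment over all genes, threshold 0.05). The genes and lists were chosen with earlier results of these data known, and lists were described by counts and medians. The genes named were the 7 oxidase genes, Cybc1, Rac1, Spi1, Irf1, Irf8 and Pcx, and the 5 genes most correlated with Cybb and with Nox4 (Pearson, group means removed). Added to these were the genes of smallest p (at most 4 per list) of the 6 wider lists and of the leukocyte, macrophage and neutrophil lists. From the other marker lists no gene was named by its p. Noxo1, Noxa1, Cd163 and Msr1 were named after their values were seen. The 250 bases before each RefSeq start site were searched for motifs.

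The fit was repeated with quantile normalization, with each array centred on its median, with only the probe sets above the 30th percentile in at least 5 arrays, with variances fitted by trend and made robust (statmod 1.5.0), with weights per array, with the t-test that the methods name for 2 groups, with probe sets of a gene averaged, with the replicate number as a blocking factor, with a marker list as a covariate and without single tumors or pairs of tumors. The route from table to calls was tested on simulated data.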

Additional observations from a re-analysis of the deposited data

Results flagged for a closer look

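In 7 of 98 groups of 5 tumors tested (49 named genes in both groups), 1 tumor stood far from the other 4 of its group. Chance gives about 1 such group in 20. Of these, 4 concerned shPC 5, the tumor lowest for Cybb, Cyba and Rac2. Irf1 was 13.34 in shPC 5, against 14.28 to 14.60 in the other shPC tumors. Mrc1 was 16.17 in shPC 5 and 14.53 to 14.85 in the others. Mmp2 was 15.25 in shPC 5 and 16.27 to 16.64 in the others. Znhit3, named for its likeness to Nox4, was 5.83 in shPC 5 and 6.66 to 6.87 in the others. In the Ctrl group, Dock2 was 12.62 in Ctrl 5 and 13.04 to 13.21 in the others, Hk3 was 9.27 in Ctrl 1 and 9.98 to 10.12 in the others, and Csf3r was 12.42 in Ctrl 3 and 11.73 to 11.82 in the others. Among the 7 oxidase genes 0 were so marked in either group.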

How the results depend on the processing

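No oxidase gene passed the adjusted threshold under any of 23 alternatives, 2 of which were chosen after seeing the data, and the differences of Cybb, Ncf4 and Rac2 were below 0 under all of them. Unadjusted, 0 of these 3 were called lower with the leukocyte list as a covariate, and Ncf4 was also not called with arrays centred, with the adipocyte list, or without shPC 5 and Ctrl 1 together. The median difference of the 5 phagocyte subunits, -0.50, was -0.15 with the leukocyte list as a covariate, -0.31 with the adipocyte list and -0.70 without shPC 1 and shPC 3 together, and leaving out each tumor gave -0.59 to -0.42. That of Nox1 and Nox4, 0.19, was 0.87 with the leukocyte list and 0.07 to 0.28 leaving out each tumor, and it has no value without dim probe sets because Nox1 is removed. The count of lower genes in the wider lists, 16, was 0 with the leukocyte list, 10 with the adipocyte list and 12 to 19 leaving out each tumor. The shares of all genes called lower were then 1.49%, 3.97% and 4.9% to 6.86%. The count of genes past the adjusted threshold, 0, was 1 (Gzmc) with arrays centred, 10 with trend and robust variances and 0 to 4 leaving out each tumor, with 4 without shPC 4 and 1 each without shPC 2 and without Ctrl 4.

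Over 49 named genes, 33 values changed sign and 1091 kept sign and call. With the leukocyte list the differences were 0.03 for Cyba, -0.13 for Ncf1, -0.17 for Poldip2, 0.04 for Dock2, -0.15 for Tiam2, 0.34 for Arhgap15, 0.03 for Elf1, 0.19 for Hvcn1, 0.71 for Nos2, 0.90 for Sod3, 0.02 for Sod2, 0.00 for Csf3r, 0.01 for Cd52, 0.31 for Cybc1, 0.09 for Rac1, 0.15 for Spi1, 0.19 for Btg1, 0.02 for Apol10b, 0.82 for Gramd4, 0.16 for Mmp2, 0.06 for Svs5 and 0.05 for Syna. Cd52 is itself a gene of the leukocyte list, so its value with that list is not a separate reading. With the adipocyte list Ncf1 was -0.15 and Me1 0.04. With arrays centred Cybc1 was 0.03 and Rac1 0.04, and with array weights Gramd4 was 0.04. Without shPC 5 Ncf1 was -0.08 and Gramd4 0.09, without shPC 5 and Ctrl 1 together they were -0.09 and 0.02, without shPC 3 Nox4 was -0.01, and without shPC 1 and shPC 3 together it was -0.11. Leaving out each tumor gave -0.01 to 0.43 for Nox4, 0.01 to 0.46 for Nox1, -0.08 to 0.19 for Ncf1 and -0.34 to 0.09 for Gramd4. The cause was not tested.

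The labels do not say whether the replicate numbers pair the tumors. Same-numbered tumors deviated together with r of 0.0441, 0.109, 0.281, 0.0739 and 0.091, and shPC 1 was closest to Ctrl 3 (0.24). These few values cannot exclude a pairing. With the number as a block the median difference of the subunits was -0.50 and that of Nox1 and Nox4 0.19, and 0 genes passed the adjusted threshold. By the unadjusted rule 20 of the 60 measured genes of the wider lists were then lower, against 7.51% of all genes.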
